A study of Mus musculus with 32 samples.

Results

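Lung tumors that had lost both *Lkb1* (gene symbol *Stk11*) and *Trp53* were compared with *KT* tumors, in which both genes were wild-type. The comparison took 11 of the 32 libraries of the series: the 7 libraries of non-restored tumors with deleted *Trp53*, which came from 4 animals by their titles and were summed per animal, and the 4 *KT* libraries. All of these tumors carried a Cre-activated tdTomato reporter and were initiated with Lenti-Cre given into the airway. In the double-deficient tumors Cre also switched on a gene trap in the first intron of *Lkb1* (the XTR allele, homozygous) and deleted *Trp53*. These tumors were collected at 16 to 19 weeks and the *KT* tumors at 24 to 27 weeks. Animals 1 and 2 of the double-deficient group carried FLPo-ERT2, the recombinase that can remove the trap, and received vehicle for 2 weeks, so that the trap stayed in place. Animals 3 and 4 lacked FLPo-ERT2 and received 4 mg doses of tamoxifen. The *KT* mice were untreated. Mouse line, tumor age, treatment and the amount of virus differed together with the 2 genes and cannot be told apart from them here. The 10 non-restored libraries with intact *Trp53*, collected at 24 to 27 weeks (vehicle with FLPo-ERT2 or tamoxifen without it), are given alongside, because they shared the trapped *Lkb1* but not the *Trp53* deletion.

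LKB1 is a serine/threonine kinase that forms a complex with the pseudokinase STRAD and the scaffold MO25 and switches on AMPK, the cell's energy sensor, and a family of AMPK-related kinases. Among the latter, the salt-inducible kinases (SIKs) keep the CRTC coactivators out of the nucleus, so that loss of LKB1 is known to raise CRTC-CREB target genes. p53, the product of *Trp53*, is a stress-activated transcription factor whose targets halt the cell cycle, trigger apoptosis and limit its own activity through *Mdm2*. Both genes are among the tumor suppressors most often lost in human lung adenocarcinoma. The tumors arise largely from alveolar type II (ATII) cells, the surfactant-producing cells of the lung.

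Expected counts totalled between 1302482 and 2649449 per *KT* library and between 2233998 and 8258398 per double-deficient animal, so the *KT* side was the shallower one. Levels are given as CPM, the count scaled by the TMM-adjusted library total, in the order *KT* 1 to 4 or animals 1 to 4. Markers of the neoplastic epithelium were present throughout: *Epcam* was 281, 231, 272 and 265 CPM in *KT* and 386, 340.3, 400.2 and 645 CPM in double-deficient tumors. The 7 epithelial tumor markers listed, *Epcam* among them, summed to 19996 to 37431 CPM in *KT* and 4020 to 15198 CPM in double-deficient tumors. Of these 7, 5 had a positive log2 fold change and 2, *Sftpc* and *Nkx2-1*, a negative one. The lineages removed in the sort were scarce, with 16 immune markers summing to 48.1 to 90.9 CPM in *KT* and 45.6 to 79 CPM in double-deficient tumors, and 9 endothelial markers to 12.6 to 23.6 and 5.49 to 41.9 CPM. Within the immune list *Cd3e* was at 0 in all 8 samples and *Ptprc* (CD45) was at most 5.03 CPM, and *Mrc1*, a macrophage receptor, was the 1 of 3 markers tested that was called (log2 fold change 1.94, adjusted p 0.0359). The sort selected tdTomato-positive cells, and its exclusion antibodies included none against fibroblasts. Fibroblast markers reached 405 CPM over 10 genes in animal 2 and 9.61 CPM in animal 4, against 17 to 88.8 CPM in *KT*. All 6 fibroblast markers tested had a positive log2 fold change, with a median of 2.07, and 0 were called by edgeR or by DESeq2, with 3 at an unadjusted p under 0.05. The sex shown by *Xist* and Y-linked genes matched the label in all 18 samples checked. Each *KT* library came from a separate mouse, whereas it was not established that each non-restored library did.

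The 3 libraries of animal 1 did not resemble one another. Libraries 1 and 2 had a Pearson correlation of 0.973 across genes on the log2 CPM scale, whereas library 3 had 0.868 and 0.856 with them and 0.94 and 0.929 with the libraries of animal 2. *Sftpc*, which encodes surfactant protein C, was 681 and 857 CPM in libraries 1 and 2 and 20205 CPM in library 3. *Itga2*, an integrin subunit, was 3076, 3649 and 189.6 CPM in the same order, and *Hmga2*, an embryonic chromatin factor of advanced tumors, 60.9, 83.2 and 1.16 CPM. *Ptprn* was 302, 318 and 379.7 CPM, alike in all 3. The title of library 3 marks it T1 and those of libraries 1 and 2 mark them Bulk. Because the sum for animal 1 is dominated by libraries 1 and 2, counts against *KT* below are also given with animal 1 represented by library 3 alone, an alternative added after the data had been seen. It was not run for the comparison with non-restored tumors.

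**Figure D1:**
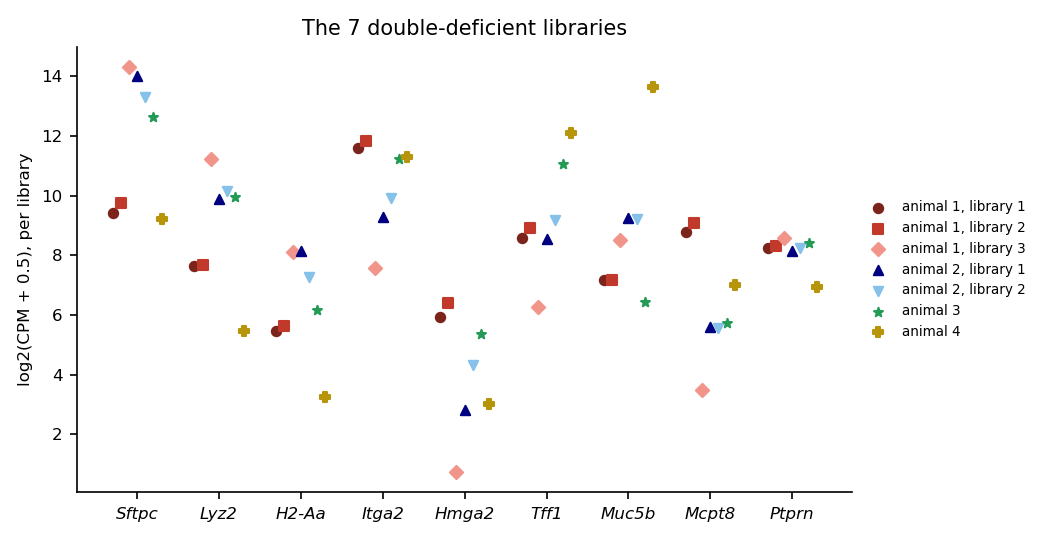
Level of 9 genes in each of the 7 double-deficient libraries, as log2(CPM + 0.5) on the vertical axis; colors and symbols mark the library and its animal. Library 3 of animal 1 lies apart from libraries 1 and 2 of the same animal for *Sftpc*, *Lyz2*, *H2-Aa*, *Itga2*, *Hmga2*, *Tff1* and *Mcpt8*, and animal 4 is highest for *Muc5b* (12637 CPM) and lowest for *Lyz2*, whereas *Ptprn* stays within 123 to 379.7 CPM. Each library was scaled on its own here, so levels differ slightly from those per animal.

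Both targeted genes were low in every double-deficient sample. *Stk11* (chr10:80115803-80130682, mm10, plus strand) was 18.2, 16.3, 27.2 and 25.8 CPM in *KT* and 0.533, 0.312, 0 and 0.457 CPM in double-deficient tumors, and none of the 7 libraries held more than 2 *Stk11* counts. The groups did not overlap, the mean was 0.326 CPM ± 0.236 (SD, n = 4) against 21.9 ± 5.44 (n = 4), or 1.49% of the *KT* level, and the two-sided exact permutation p was 0.0286 (log2 fold change -5.96, SE 0.494, adjusted p 0.000324 in edgeR's quasi-likelihood test). *Trp53* (chr11:69580359-69591873, plus strand) was 14.3, 28.5, 32.1 and 22.5 CPM in *KT* and 1.47, 5, 2.56 and 1.37 CPM in double-deficient tumors. It stood at 10.7% of the *KT* level, again without overlap (exact permutation p 0.0286; log2 fold change -3.15, SE 0.435, adjusted p 0.00239). With 4 samples against 4, 0.0286 is the smallest p that the 70 possible splits allow, and it is also the value after adjustment over the 2 genes. Animal 2 kept the most *Trp53* reads, 13 and 19 counts in its 2 libraries. In the non-restored tumors with intact *Trp53*, *Stk11* was 0 to 1.06 (median 0.373) CPM and *Trp53* was 11.6 to 35.7 (median 25.8) CPM. No sample went against its label.

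**Figure D2:**
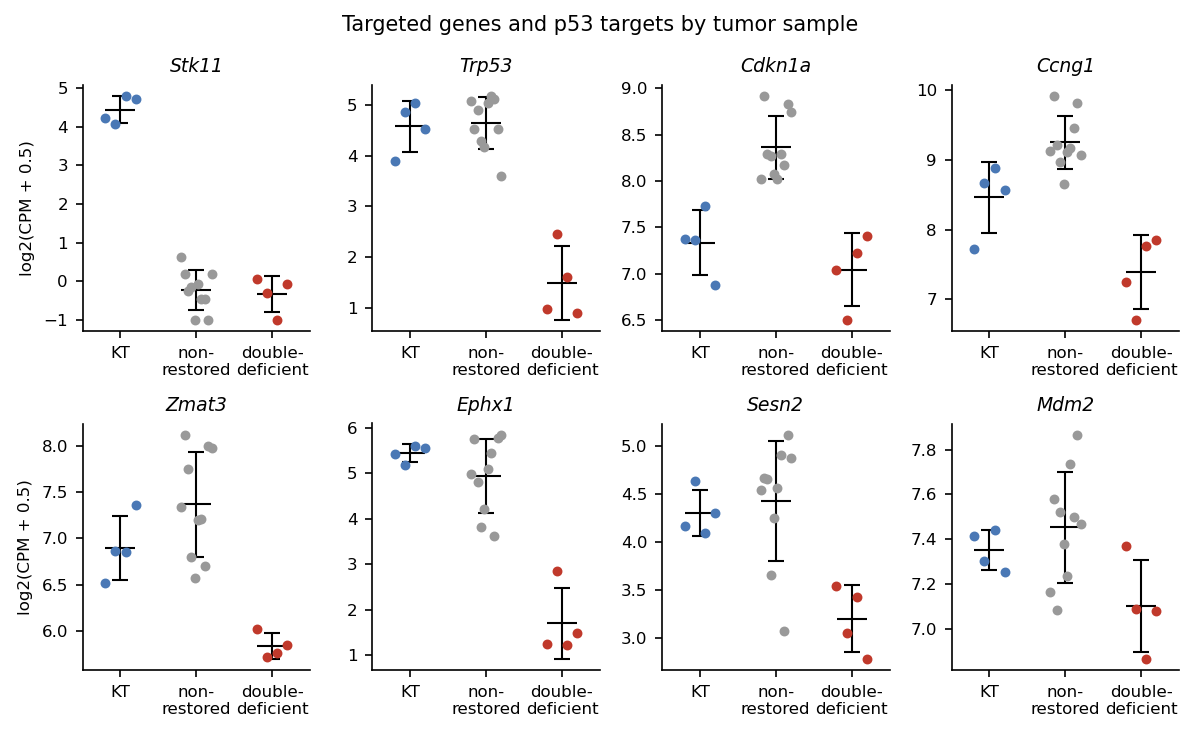
Levels of *Stk11*, *Trp53* and 6 p53 target genes as log2(CPM + 0.5); each point is 1 sample of the *KT* (n = 4), non-restored (n = 10) or double-deficient (n = 4) group, and bars show the mean and SD. *Stk11* is low in both groups with the trapped allele and *Trp53* only in the double-deficient one, while *Cdkn1a* lies at 90.2 to 169.7 CPM in double-deficient, 117 to 212 in *KT* and 259 to 484 in non-restored tumors.

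Across the transcriptome, 10779 genes were tested between double-deficient and *KT* tumors. A gene is said to be called where edgeR's quasi-likelihood test gave it an adjusted p below 0.05, which was so for 1066 genes that were higher (9.89% of those tested) and 604 that were lower (5.6%), or 15.5% in all. With an absolute log2 fold change over 1 as well, 604 were higher (5.6%) and 420 lower (3.9%). In 1563 genes (14.5%) each double-deficient animal lay above each *KT* sample, and in 932 (8.65%) below. The median log2 fold change over all genes tested was 0.08. With library 3 alone for animal 1 there were 212 higher and 153 lower calls, and with libraries 1 and 2 alone 1039 and 594. Leaving out single samples gave between 892 calls (without animal 3) and 2131 (without animal 2), the vehicle arm alone gave 588 and the tamoxifen arm alone 2146. DESeq2 called 1283 genes higher and 1112 lower, a split of 53.6% higher against 63.8% with edgeR. The comparison was fitted in 24 ways in all, and for the genes named below the number of fits that called them is given where it bears on the value. Members of each group below had first to pass the filter on low counts, so a count over the members tested is a description of those members and not of the whole list.

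Of the 10 genes that rose with the smallest adjusted p, 9 are described: *Stc1*, *Homer2*, *Palld*, *Cavin3*, *Smim6*, *Gcnt4*, *Mmp14*, *Fam78b* and *Slc5a3*. *Stc1*, which encodes the secreted hormone stanniocalcin-1, was 1.3, 0, 2.84 and 0.47 CPM in *KT* and 98.4, 130.5, 79.4 and 81.4 CPM in double-deficient tumors (log2 fold change 6.17, SE 0.46, adjusted p 0.000324; chr14:69029238-69041804). *Homer2*, a scaffold protein gene, was 9.09, 12.2, 5.28 and 6.58 CPM and 91, 59.5, 74.4 and 97.9 CPM (log2 fold change 3.33, SE 0.282, adjusted p 0.000324; chr7:81600481-81707527). That each double-deficient animal lay above each *KT* tumor was a condition for choosing these genes. *Palld* encodes palladin, an actin crosslinker, and was 6.49, 7.34, 3.25 and 6.58 CPM in *KT* against 103, 52.7, 133 and 105 CPM, a log2 fold change of 4.10 (adjusted p 0.000324). *Cavin3*, which encodes a coat protein of caveolae, was 1.95, 5.71, 4.87 and 5.17 CPM and 72.6, 37.5, 57.1 and 63.6 CPM, a log2 fold change of 3.68 (adjusted p 0.000324). *Mmp14*, the membrane-bound collagenase MT1-MMP, was 22.1, 15.5, 19.1 and 15 CPM and 96.4, 82.7, 129 and 69.1 CPM, a log2 fold change of 2.40 (adjusted p 0.000606). *Slc5a3*, a myo-inositol transporter, had 2.22 (adjusted p 0.000919) and *Gcnt4*, a glycosyltransferase of O-glycans, 4.04 (adjusted p 0.00042). *Smim6* and *Fam78b* were almost absent from *KT*, with 4 counts over the group each, and held 642 and 426 counts in the double-deficient group. Their ratios of pooled CPM were 54.8 (95% interval 21.3 to 202) and 36.4 (14.1 to 134), intervals that cover counting error only. These 9 genes were called in each fit that tested them, the one with library 3 for animal 1 included.

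The 10 genes that fell with the smallest adjusted p were *Stk11*, *Tspyl4*, *Etv1*, *Pygo1*, *Hs3st3b1*, *Spink5*, *Sord*, *Map3k20*, *Rasd2* and *Ephx1*. *Pygo1*, a Wnt pathway coactivator, was 35.7, 44, 47.1 and 35.7 CPM in *KT* and 0.533, 2.03, 1.1 and 0 CPM in double-deficient tumors (log2 fold change -5.24, SE 0.459, adjusted p 0.000324; chr9:72925645-72952181). *Sord*, sorbitol dehydrogenase of the polyol pathway, was 59.1, 51.3, 47.9 and 50.3 CPM and 1.87, 7.66, 4.39 and 4.12 CPM (log2 fold change -3.52, SE 0.36, adjusted p 0.000778; chr2:122234749-122265340). *Etv1*, an ETS transcription factor, was 158, 82.3, 112 and 118 CPM and 20.5, 21.1, 18.3 and 23.3 CPM, which is one of the narrowest spreads among the lower genes (log2 fold change -2.51, SE 0.212, adjusted p 0.000324). Groups that did not overlap were a condition for choosing the lower genes as well. *Tspyl4*, of the nucleosome assembly protein family, showed a log2 fold change of -2.84 (adjusted p 0.000324), and *Hs3st3b1*, a heparan sulfate sulfotransferase, of -3.52 (adjusted p 0.000329). *Map3k20*, which encodes the stress kinase ZAK, had -2.40 (adjusted p 0.00108) and *Rasd2*, a small GTPase, -4.15 (adjusted p 0.00108). *Spink5*, a serine protease inhibitor, held 135 counts in the *KT* group and 1 count in the double-deficient group, a ratio of pooled CPM of 395 with a 95% counting interval of 69.8 to 15734. *Ephx1*, microsomal epoxide hydrolase, is also a p53 target and is described with those genes. These genes, too, were called in each fit that tested them. Of these 10 genes, *Ephx1* was also called lower than in non-restored tumors with intact *Trp53* (log2 fold change -3.38, adjusted p 0.00259), and the log2 fold changes of the other 9 against those tumors, not called, ran from -1.95 for *Spink5* to -0.09 for *Stk11*. In non-restored tumors *Sord* was 4.87 to 14.1 (median 7.47) CPM, *Pygo1* 0 to 6.4 (median 2.57) CPM, *Stc1* 14.1 to 266 (median 52.3) CPM and *Homer2* 39.7 to 110.1 (median 71.7) CPM.

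**Figure D3:**
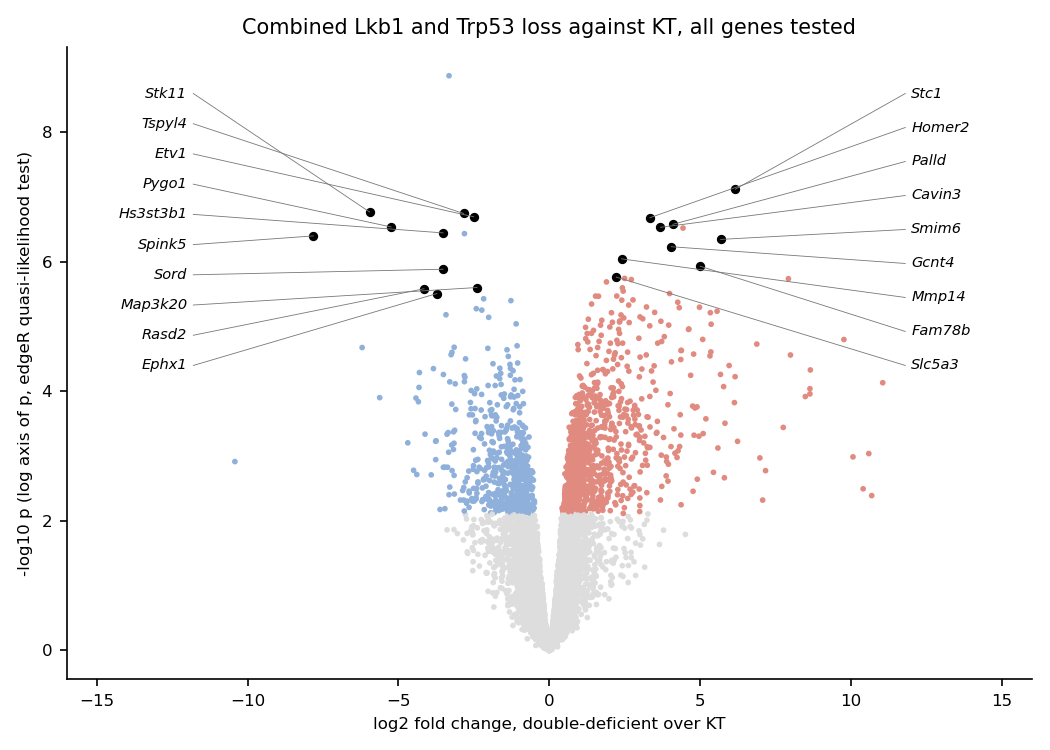
Each point is 1 of the 10779 genes tested between double-deficient and *KT* tumors, with the log2 fold change on the horizontal axis and -log10 of the unadjusted p on the vertical axis; red marks genes called higher, blue genes called lower and grey the rest. The labelled genes (black) are the 9 higher and 10 lower ones described in the text, with *Stk11* at -5.96 and *Pygo1* at -5.24 on the left and *Stc1* at 6.17 on the right.

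Targets of p53 were examined next, by function. Of the 41 genes listed, 33 were tested against *KT*, and 7 were called lower and 3 higher. That is 21.2% lower, where 5.6% of all genes were called lower, and the median over the 33 genes was -0.13 against 0.08 over all genes tested. Among 9 cell cycle arrest genes 3 fell and 1 rose, among 9 apoptosis genes 1 fell, among 6 genes of feedback and DNA repair 0 were called (1 lower at an unadjusted p under 0.05 in edgeR and 1 lower by DESeq2), and among the other 9 genes 3 fell and 2 rose. The 7 that fell were *Ephx1*, *Zmat3*, *Sesn2*, *Ccng1*, the adenylate kinase gene *Ak1*, the death receptor gene *Fas* and the carbonyl reductase gene *Dcxr*. *Ephx1* was 42.9, 35.9, 48.3 and 47 CPM in *KT* and 1.87, 6.72, 1.83 and 2.29 CPM in double-deficient tumors (log2 fold change -3.72, SE 0.412, adjusted p 0.00114). Animal 2 was the highest of the 4 for this gene and the lowest for *Zmat3* and *Ccng1*. *Zmat3*, an RNA-binding regulator of splicing and growth, was 90.9, 116, 115 and 164 CPM and 64.6, 52, 53.6 and 57.2 CPM (log2 fold change -1.10, SE 0.191, adjusted p 0.00661). *Sesn2*, a stress-induced inhibitor of mTORC1, was 17.5, 24.5, 16.6 and 19.3 CPM and 11.2, 7.81, 10.2 and 6.4 CPM, a log2 fold change of -1.09 (adjusted p 0.0195, called in 20 of 24 fits). *Ccng1*, which encodes cyclin G1, was 211, 408, 473 and 380.0 CPM and 151, 104, 217 and 229.6 CPM, with *KT* 1 inside the range of the double-deficient animals, and was called in 15 of 24 fits (log2 fold change -1.07, SE 0.301, adjusted p 0.0398). Not all targets were lower. *Plk3*, a polo-like kinase, was 2.6, 12.2, 13 and 9.39 CPM and 38.7, 18.3, 41.2 and 47.6 CPM, a log2 fold change of 1.94 (adjusted p 0.0168, called in 19 of 23 fits), and *Rap2b* and *Tigar* were the other genes called higher, with 2.77 (adjusted p 0.0321) and 1.45 (adjusted p 0.0375). With library 3 for animal 1, 2 targets were called lower and 0 higher. Leaving out single samples, the count of lower calls was 3 without animal 1 and 4 without KT 3 or 4 or animal 3, and that of higher calls 1 without KT 1 or 4 or animal 1 or 3 and 5 without animal 2. The apoptosis activators *Bax* and *Pmaip1* were not called. *Bax* was 10.4, 11.4, 13.8 and 9.86 CPM in *KT* and 9.33, 10.9, 9.15 and 8.69 CPM in double-deficient tumors, and *Pmaip1*, which encodes NOXA, was 7.79, 12.2, 11.4 and 8.92 CPM and 138, 13.9, 1.1 and 55.8 CPM, so that animals 1 and 4 lay above and animal 3 below all *KT* tumors.

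The 2 best known targets did not reach the threshold against *KT*. *Cdkn1a*, which encodes the cell cycle inhibitor p21, was 165, 165, 212 and 117 CPM in *KT* and 131, 90.2, 149 and 169.7 CPM in double-deficient tumors (log2 fold change -0.29, SE 0.227, adjusted p 0.411), and *Mdm2*, the ubiquitin ligase that degrades p53, was 170.2, 157, 173 and 152 CPM and 165, 136, 116 and 135 CPM (log2 fold change -0.24, SE 0.144, adjusted p 0.278). The 95% intervals of their log2 fold changes ran from -0.74 to 0.15 and from -0.53 to 0.04. Against the non-restored tumors, which share the trapped *Lkb1*, 5 of 36 p53 targets tested were called lower and 0 higher (2 at an unadjusted p under 0.05 and 0 by DESeq2), where 0.0992% of all 12101 genes were called lower. They were *Cdkn1a*, *Ccng1*, *Zmat3*, *Ephx1* and *Phlda3*. *Cdkn1a* was 259 to 484 (median 310.4) CPM in non-restored tumors, above all 4 double-deficient animals, with a log2 fold change of -1.33 (adjusted p 0.00598, SE 0.216). *Ccng1* was 404 to 971 (median 568) CPM in non-restored tumors, above all 4 double-deficient animals, with a log2 fold change of -1.85 (adjusted p 0.00222, SE 0.272). *Phlda3*, an inhibitor of AKT signaling, was too low to test against *KT* (3.9, 4.08, 6.49 and 3.76 CPM, against 0.533, 0.312, 0.549 and 0.457 CPM), but was 3.23 to 16 (median 6.18) CPM in non-restored tumors, with a log2 fold change of -3.98 (adjusted p 0.000419, SE 0.509). For *Ccng1*, *KT* 1 lay inside the range of the double-deficient animals and *KT* 2 and 3 inside that of the non-restored tumors, while for *Cdkn1a* the *KT* tumors overlapped the double-deficient animals. From *KT* to non-restored tumors the log2 fold change was 1.04 (adjusted p 0.00943) for *Cdkn1a*, 0.78 (adjusted p 0.0857) for *Ccng1* and 0.54 (adjusted p 0.266) for *Zmat3*. Both comparisons use the *KT* samples, so these values are only set side by side.

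Promoter sequences are shown for 3 of the 5 targets that fell against the non-restored tumors. Each is a RefSeq window on GRCm38.p6 of 250 bases before to 50 bases after the start of the gene, printed 5′ to 3′ on the gene's strand, with matches to the p53 decamer in capitals. This decamer, the unit of which 2 form a p53 response element, was searched without mismatches on both strands.
*Ccng1*, chr11:40755237-40755536, minus strand: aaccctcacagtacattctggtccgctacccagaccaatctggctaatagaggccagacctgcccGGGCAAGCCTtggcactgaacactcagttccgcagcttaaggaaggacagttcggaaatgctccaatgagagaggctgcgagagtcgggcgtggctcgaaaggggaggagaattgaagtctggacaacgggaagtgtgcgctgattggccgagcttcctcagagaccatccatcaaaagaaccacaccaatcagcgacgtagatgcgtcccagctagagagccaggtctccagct
*Cdkn1a*, chr17:29090729-29091028, plus strand: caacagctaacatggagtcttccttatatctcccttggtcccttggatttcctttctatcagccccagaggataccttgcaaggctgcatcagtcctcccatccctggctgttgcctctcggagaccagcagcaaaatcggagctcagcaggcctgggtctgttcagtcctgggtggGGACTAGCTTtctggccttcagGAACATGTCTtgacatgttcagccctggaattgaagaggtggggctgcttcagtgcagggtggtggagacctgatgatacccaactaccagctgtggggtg
*Ephx1*, chr1:181017520-181017819, minus strand: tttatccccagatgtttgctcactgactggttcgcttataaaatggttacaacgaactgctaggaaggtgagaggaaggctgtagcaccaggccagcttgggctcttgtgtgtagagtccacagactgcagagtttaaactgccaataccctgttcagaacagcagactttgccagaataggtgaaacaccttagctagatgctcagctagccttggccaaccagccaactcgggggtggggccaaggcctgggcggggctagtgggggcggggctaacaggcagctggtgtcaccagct
*Ccng1* held 1 match and *Cdkn1a* 2, and the *Ephx1* window held none. The second *Cdkn1a* window and the windows of *Phlda3*, *Sesn2*, *Ak1*, *Fas* and *Dcxr*, which were also searched, held none either. No window was found for *Zmat3*. Of all 32851 windows 8.36% held the decamer. Of the 41 targets listed, 33 had a window, and 14 of their 48 windows held it, 29.2%. A match is a description of letters, and no binding was measured.

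Of 8 upstream regulators and relatives of p53 that were tested, *Mdm4*, which restrains p53, was called lower and *Usp7*, a deubiquitinase of MDM2 and p53, higher. That is 12.5% each way, where 5.6% of all genes were called lower and 9.89% higher. *Mdm4* was 251, 119, 168 and 189 CPM in *KT* and 114, 119, 113 and 92.4 CPM, a log2 fold change of -0.73 (adjusted p 0.0426, called in 13 of 24 fits), and *Usp7* was 137, 166, 162 and 145 CPM and 281, 211, 207 and 252 CPM, 0.64 (adjusted p 0.0194, called in 18 of 24 fits). *Cdkn2a*, which encodes p16 and p19ARF, was 6.49, 2.45, 5.68 and 8.45 CPM and 4.8, 14.5, 7.87 and 0.457 CPM, within the spread (log2 fold change 0.29, adjusted p 0.802). Among the regulators, the higher count was 0 without KT 4 or animal 1 and the lower count 0 without KT 1, 3 or 4 or animal 1, 3 or 4, and neither gene was called with library 3 for animal 1.

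Besides *Stk11*, none of the other 4 genes of the LKB1 complex tested was called. *Cab39*, which encodes MO25, was 259.8, 248, 231 and 225 CPM in *KT* and 274, 252, 284 and 242 CPM in double-deficient tumors (log2 fold change 0.13, adjusted p 0.53), and *Strada* and *Stradb* had log2 fold changes of -0.39 (adjusted p 0.37) and -0.44 (adjusted p 0.296). Of 19 genes of the complex and its substrate kinases that were tested, 4 were called lower (*Stk11*, *Prkaa2*, *Prkag2* and *Snrk*) and 1 higher (*Sik1*). That is 21.1% and 5.26%, where 5.6% and 9.89% of all genes were called lower and higher, and the median was -0.03. The lower share includes *Stk11*, which was inactivated by design. *Prkaa2*, the alpha 2 catalytic subunit of AMPK, was 40.9, 77.4, 56.8 and 30.5 CPM in *KT* and 6.66, 16.9, 4.94 and 8.23 CPM (log2 fold change -2.46, SE 0.424, adjusted p 0.00704). It was called in all 24 fits. The other catalytic subunit, *Prkaa1*, was 73.4, 79.1, 65.4 and 62 CPM and 75.2, 81.7, 105 and 122 CPM (log2 fold change 0.46, adjusted p 0.122). In non-restored tumors *Prkaa2* was 6.14 to 85 (median 47.6) CPM, overlapping both groups, and its log2 fold change between double-deficient and non-restored tumors was -2.20 (adjusted p 0.117, SE 0.583). *Prkag2*, a regulatory gamma subunit, was 24, 26.1, 28 and 20.2 CPM and 10.7, 17.2, 8.41 and 10.1 CPM, a log2 fold change of -1.07 (adjusted p 0.023, called in 17 of 24 fits). *Snrk*, an AMPK-related kinase, had -0.85 (adjusted p 0.0482, called in 9 of 24 fits). *Sik1*, itself a CREB target, was 36.4, 77.4, 75.9 and 56.8 CPM and 142, 112, 155 and 301 CPM without overlap, a log2 fold change of 1.52 (adjusted p 0.0197, called in 21 of 24 fits), with *Sik2* at 1.14 (adjusted p 0.107) and *Sik3* at -0.03 (adjusted p 0.932). The count of lower members was 2 without KT 3 or animal 1 or 3, that of higher members 0 without KT 4, and with library 3 for animal 1 *Stk11* and *Prkaa2* stayed called.

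Genes driven by CRTC and CREB were higher where called: of 18 tested, 4 rose (22.2%, where 9.89% of all genes rose) and 0 fell, with a median of 0.35. None of the 6 coactivator and CREB-family genes (*Crtc1* to *Crtc3*, *Creb1*, *Atf1* and *Crem*) was called in either direction, and the 4 calls were *Ptprn*, *Pde4b*, *Dusp1* and *Pde4d*. *Ptprn*, a transmembrane protein of dense-core secretory vesicles, was 15.6, 11.4, 7.71 and 23 CPM in *KT* and 363, 278, 341 and 125 CPM in double-deficient tumors (log2 fold change 4.26, SE 0.436, adjusted p 0.00122; chr1:75247027-75264502). No gap was as wide among the 4, and *Ptprn* was called in all 24 fits. *Pde4b*, a cAMP phosphodiesterase, was 88.3, 53.8, 62.5 and 61.1 CPM and 184, 128, 138 and 149 CPM (log2 fold change 1.17, SE 0.191, adjusted p 0.00517), also called in all 24 fits. *Dusp1*, a MAP kinase phosphatase, was 245, 335, 474 and 116 CPM and 1209, 646, 709 and 1306 CPM, a log2 fold change of 1.73 (adjusted p 0.0276, called in 16 of 24 fits), and *Pde4d* had 0.70 (adjusted p 0.0364, called in 12 of 24 fits). *Nr4a1*, a classical cAMP-induced receptor, overlapped, at 77.3, 296, 512 and 20.7 CPM and 219.7, 251, 205 and 305 CPM (log2 fold change 0.11, adjusted p 0.942). Leaving out single samples, the count was 2 without KT 1 or animal 1 or 4, and it was 2 with library 3 for animal 1. In non-restored tumors with intact *Trp53*, *Ptprn* was 68.5 to 455 (median 173) CPM and *Pde4b* 78.4 to 175 (median 114) CPM, and between these and the double-deficient tumors the log2 fold changes were 0.33 (adjusted p 0.667, SE 0.385) and 0.30 (adjusted p 0.438, SE 0.205). *Ptprn* was also 1 of 2 neuroendocrine secretory genes, of 15 listed, that were high enough to test, and the 1 that was called.

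The promoters of 3 of these 4 genes are shown, since they rose together and CREB binds a short palindrome, the cAMP response element TGACGTCA, or its core TGACG. The core is in capitals on either strand, where it reads CGTCA on the opposite one, and a full element holds 2 overlapping cores. The windows are defined as above, and where RefSeq gives several starts for a gene the most upstream one is printed.
*Ptprn*, chr1:75264159-75264458, minus strand: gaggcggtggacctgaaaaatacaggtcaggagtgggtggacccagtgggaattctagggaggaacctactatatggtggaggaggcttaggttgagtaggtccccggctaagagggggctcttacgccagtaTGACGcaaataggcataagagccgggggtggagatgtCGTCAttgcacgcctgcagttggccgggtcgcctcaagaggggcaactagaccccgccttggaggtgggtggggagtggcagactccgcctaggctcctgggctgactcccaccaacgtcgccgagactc
*Pde4b*, chr4:102421305-102421604, plus strand: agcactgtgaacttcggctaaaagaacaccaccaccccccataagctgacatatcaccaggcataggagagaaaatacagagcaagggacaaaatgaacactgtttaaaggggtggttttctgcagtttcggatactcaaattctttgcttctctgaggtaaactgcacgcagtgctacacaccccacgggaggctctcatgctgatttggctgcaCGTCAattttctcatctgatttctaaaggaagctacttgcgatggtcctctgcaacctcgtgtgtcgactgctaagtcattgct
*Dusp1*, chr17:26508423-26508722, minus strand: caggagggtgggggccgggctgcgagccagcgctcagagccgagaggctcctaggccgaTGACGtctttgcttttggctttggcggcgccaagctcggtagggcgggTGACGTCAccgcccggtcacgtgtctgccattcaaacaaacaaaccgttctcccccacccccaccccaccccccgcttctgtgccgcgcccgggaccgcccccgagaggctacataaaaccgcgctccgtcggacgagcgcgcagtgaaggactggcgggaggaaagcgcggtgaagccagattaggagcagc
*Ptprn* held 2 cores, *Pde4b* 1 and *Dusp1* 3, of which 2 overlap in 1 full element. TGACG on either strand occurred in 20.8% of all windows and the full element in 1.79%. Among the 21 listed genes, 19 had a window, and 15 of 31 windows held a core and 2 a full one. The *Pde4d* window and the other *Ptprn* and *Pde4b* windows held none.

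Genes of the alveolar type II state were mostly lower. Of 25 tested, 13 fell (52%, against 5.6% of all genes) and 1 rose, and the median log2 fold change was -1.62. Fewer cells in this state and less RNA per cell cannot be told apart in bulk samples. *Lyz2*, lysozyme, was 12055, 28325, 19376 and 17887 CPM in *KT* and 974, 984, 999 and 44.8 CPM in double-deficient tumors (log2 fold change -4.69, SE 0.875, adjusted p 0.0127). Animal 4 was the lowest and no animal reached the lowest *KT* tumor. The value of animal 1 is the sum of libraries at 197, 203 and 2387 CPM. *Cxcl15*, the lung chemokine lungkine, was 5847, 15050.2, 13381 and 8164 CPM and 2807, 3132, 4280.3 and 1474 CPM, a log2 fold change of -1.86 (adjusted p 0.0126, called in 22 of 24 fits). *Abca3*, the lamellar body lipid transporter, was 891, 936, 939 and 904 CPM and 498, 586, 503 and 316 CPM, with a tight *KT* group (log2 fold change -0.95, SE 0.192, adjusted p 0.0114), and was called in 23 of 24 fits. *Sftpa1*, surfactant protein A, was 9014, 24050.1, 24943 and 21437 CPM and 4786, 5572, 2316 and 1204 CPM (log2 fold change -2.52, adjusted p 0.0146). *Sftpc* was 18622, 35871, 30808 and 29787 CPM and 7531, 13089, 6484 and 606 CPM, without overlap, and was not called (log2 fold change -2.05, SE 0.726, adjusted p 0.092). Animal 4 was the lowest, and libraries 1 and 2 of animal 1, at 681 and 857 CPM, lay near it, while library 3 held 20205 CPM. *Sftpb* was 5179, 6499, 6866 and 8578 CPM and 5817, 6846, 6859 and 3749.5 CPM (log2 fold change -0.22, adjusted p 0.578), with overlapping groups. The 1 gene of the list that rose was *Il33*, an alarmin cytokine of alveolar epithelium, at 336, 675, 537 and 307 CPM in *KT* and 2213, 1243, 2864 and 2588 CPM (log2 fold change 2.26, SE 0.33, adjusted p 0.00329), called in all 24 fits. The count of lower members was 5 without KT 3, 6 without KT 4 or animal 3 and 8 without KT 2 or animal 1, 13 with all samples and 1 with library 3 for animal 1, where the median was -1.37.

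Factors that maintain this state moved less. *Nkx2-1*, the lung lineage transcription factor, was 219, 207, 204 and 177 CPM in *KT* and 144, 184, 156 and 142 CPM (log2 fold change -0.37, SE 0.142, adjusted p 0.106), and in non-restored tumors it was 69.6 to 396 (median 316) CPM. Of 15 lineage factors tested, 2 were called lower (13.3%, where 5.6% of all genes were) and 0 higher, with a median of 0.04. *Elf5*, an ETS factor of the alveolar epithelium, was 212, 119, 149 and 120.2 CPM and 36.3, 67.8, 33.7 and 14.6 CPM, a log2 fold change of -1.95 (adjusted p 0.0158, called in 18 of 24 fits). *Cebpa*, a C/EBP factor of ATII cells, was 98.1, 111, 125 and 109 CPM and 66.5, 79.7, 79.2 and 53.5 CPM, -0.66 (adjusted p 0.0254, called in 16 of 24 fits). The count of 2 was 1 without KT 2, 3 or 4 or animal 1 or 3, and 0 with library 3 for animal 1. Of 17 alveolar type I genes, 3 rose and 1 fell (17.6% and 5.88%, against 9.89% and 5.6% of all genes), with a median of -0.37. *Cav2*, a caveolin, was 64.3, 107, 98.6 and 91.1 CPM and 279.6, 153, 233 and 305 CPM (log2 fold change 1.43, adjusted p 0.00548, called in 23 of 24 fits), *Krt7*, a simple epithelial keratin, had 1.35 (adjusted p 0.0114, called in 22 of 24 fits) and *Emp2*, an epithelial membrane protein, 1.03 (adjusted p 0.0234, called in 18 of 24 fits). *Rtkn2* had -1.71 (adjusted p 0.0441, called in 10 of 23 fits). None of these 4 was called with library 3 for animal 1, and without single samples the lower count was 0 without KT 1, 2, 3 or 4 or animal 1, 3 or 4 and 4 without animal 2.

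Genes of the foregut and gut epithelium were higher where called. Of 15 listed, 9 were tested, and 6 were called higher (66.7%) and 0 lower, with a median of 3.68. Members almost absent from *KT* passed the filter on low counts only through the double-deficient group, so this count and median describe the list and support nothing. *Hnf4a*, a transcription factor of gut and liver epithelium, was 1.95, 0.815, 2.84 and 8.45 CPM in *KT* and 50.9, 45.6, 119 and 101 CPM in double-deficient tumors (log2 fold change 4.36, SE 0.572, adjusted p 0.00292), called in 21 of 23 fits. *Tff1*, a gastric trefoil peptide, was 3.9, 0, 0 and 0 CPM and 338, 449, 2184 and 4449.8 CPM, a log2 fold change of 11.05 (adjusted p 0.00472, called in 23 of 23 fits). The range among the 4 animals was wide, and animals 3 and 4 were far above animals 1 and 2. *Ctse*, the gastric protease cathepsin E, was 151, 32.6, 82.8 and 80.3 CPM and 526, 382, 734 and 463 CPM (log2 fold change 2.60, adjusted p 0.0066, called in 22 of 24 fits). *Anxa10*, an annexin of gastric epithelium, held 1 count in the *KT* group and 1191 in the double-deficient group, a ratio of pooled CPM of 407 (95% counting interval 72.8 to 16073). *Cdx2*, a transcription factor of the intestine, was at or near 0 in all 8 samples. In non-restored tumors the same genes ran from absent to high, *Hnf4a* at 0.615 to 169 (median 4.86) CPM and *Tff1* at 0 to 5078 (median 97.9) CPM, and against those tumors 0 of 10 were called by edgeR (1 at an unadjusted p under 0.05 and 1 by DESeq2). Using library 3 for animal 1, 3 of 9 were called, with a median of 3.69. In the fit of 18 samples in 3 groups, 1 was called higher and 1 lower than in *KT*. *Muc5b*, an airway mucin, was 17.5, 10.6, 20.7 and 51.7 CPM in *KT* and 235, 579.8, 86.3 and 12914 CPM (log2 fold change 7.07, adjusted p 0.0375), and without animal 4 the log2 fold change was 3.54 (adjusted p 0.0301). Other airway markers were not called, and the club cell gene *Scgb1a1* was 6.49, 222, 71 and 35.7 CPM and 12.1, 36.2, 69 and 9.15 CPM.

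Genes of embryonic or high-grade tumor states rose in 7 of 13 cases tested (53.8%, where 9.89% of all genes rose) and fell in 0, with a median of 1.87. Members low in *KT*, such as *Hmga1*, could pass the filter on low counts through the double-deficient group. The count and median therefore only describe the members tested. *Itga2*, the integrin alpha 2 subunit, was 111, 92.9, 149 and 166 CPM in *KT* and 2533, 737, 2436 and 2539.6 CPM (log2 fold change 3.99, SE 0.415, adjusted p 0.00114), with animal 2 below the other 3. *Hmga1*, a chromatin architectural factor, was 3.25, 5.71, 5.28 and 0 CPM and 63.8, 23.1, 50.5 and 108 CPM (log2 fold change 4.13, SE 0.729, adjusted p 0.00996), called in each fit that tested it. *Krt19* was 35.7, 70.1, 77.5 and 67.6 CPM and 244, 147, 257 and 411 CPM, a log2 fold change of 2.07 (adjusted p 0.00598, called in 24 of 24 fits), and *Plaur*, the urokinase receptor, had 2.04 (adjusted p 0.0102, called in 22 of 24 fits). *Hmga2* was 3.9, 0.815, 10.6 and 4.23 CPM and 52, 11.7, 40.8 and 7.78 CPM, overlapping, and was not called (log2 fold change 2.42, SE 0.76, adjusted p 0.0653). *Onecut2* and *Runx2*, developmental transcription factors, and *Krt8*, a simple epithelial keratin, were the remaining calls, at 4.37 (adjusted p 0.0416), 1.87 (adjusted p 0.0246) and 1.18 (adjusted p 0.0154). Using library 3 for animal 1, there were 4 calls among 12 genes tested. *Msln*, mesothelin, which marks mesothelium but also some carcinomas, was 0.649, 0, 2.84 and 7.05 CPM and 217, 68.4, 169 and 305 CPM (log2 fold change 5.96, adjusted p 0.00339), while the 4 other mesothelial markers were at most 1.41 CPM in the 8 samples.

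**Figure D4:**
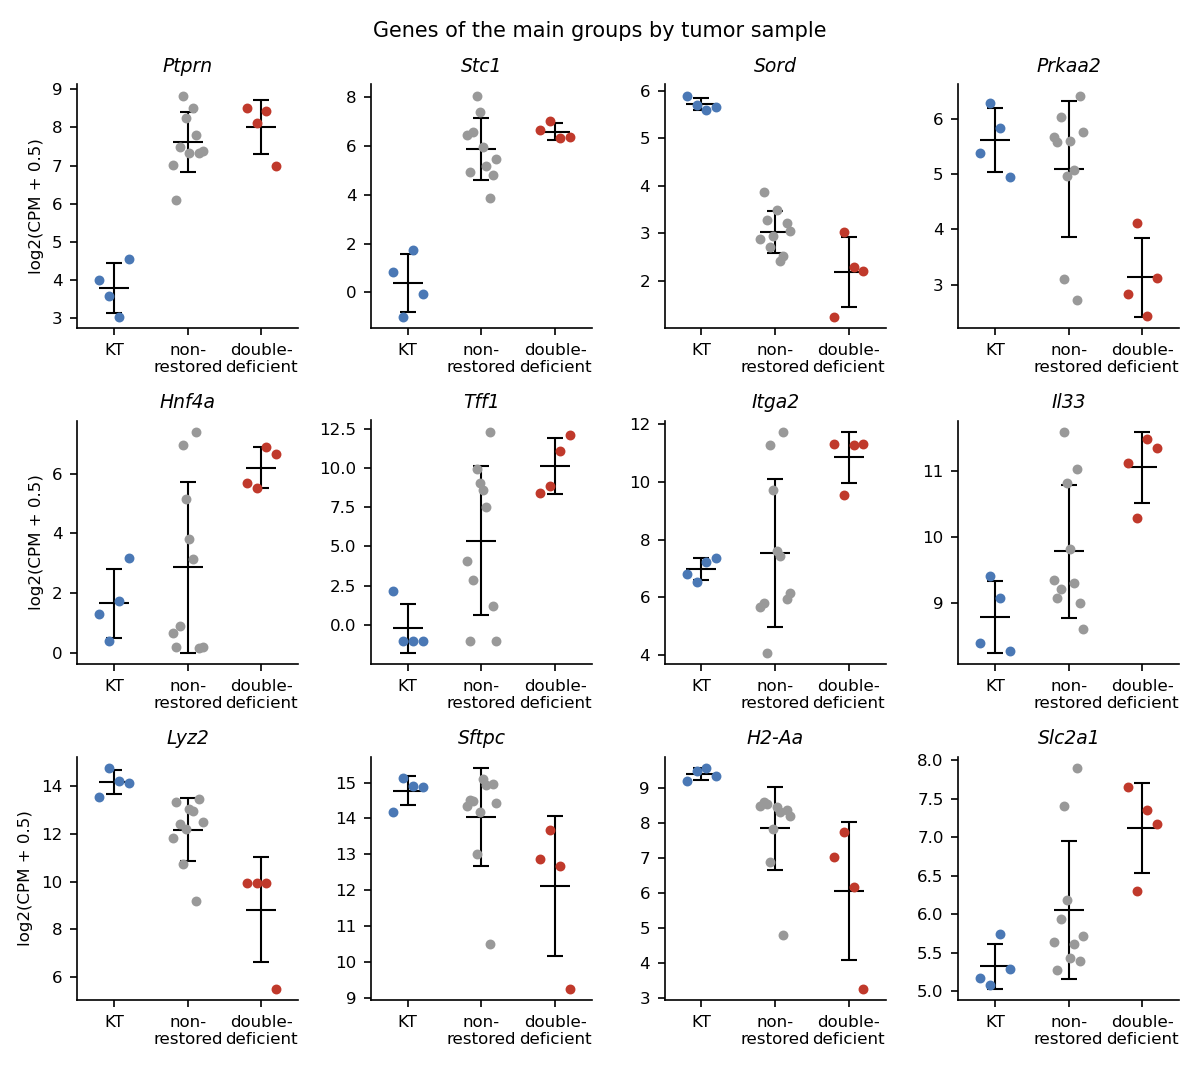
Levels of 12 genes of the main groups as log2(CPM + 0.5); each point is 1 sample of the *KT* (n = 4), non-restored (n = 10) or double-deficient (n = 4) group, and bars show the mean and SD. The double-deficient samples lie above all *KT* samples for *Ptprn*, *Stc1*, *Hnf4a*, *Tff1*, *Itga2*, *Il33* and *Slc2a1* and below them for *Sord*, *Prkaa2*, *Lyz2*, *Sftpc* and *H2-Aa*, and the non-restored samples spread over both ranges for *Hnf4a*, *Tff1* and *Itga2*.

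Of 9 epithelial adhesion genes tested, 6 rose (66.7%) and 0 fell, with a median of 0.79, and of 7 mesenchymal genes 1, *Vim*, rose (14.3%). Over all genes 9.89% rose, so the mesenchymal count lay near that share. *Dsp*, desmoplakin of the desmosome, was 168, 151, 188 and 210.4 CPM in *KT* and 447, 243, 382 and 424 CPM (log2 fold change 1.06, adjusted p 0.00981, called in 21 of 24 fits). *Ocln*, a tight junction protein, had 0.96 (adjusted p 0.0143, called in 21 of 24 fits) and *Cldn7*, a claudin, 1.26 (adjusted p 0.0213, called in 19 of 24 fits). *Cdh1*, E-cadherin, was 337, 588, 618 and 546 CPM and 1154, 718, 796 and 936 CPM (log2 fold change 0.79, adjusted p 0.0408). *Vim*, vimentin, was 15.6, 17.1, 21.9 and 16 CPM and 43.2, 66.9, 41.7 and 19.2 CPM, with animal 4 inside the *KT* range (log2 fold change 1.28, adjusted p 0.0286, called in 14 of 24 fits). The fibroblast markers summed above were also lowest in animal 4 and highest in animal 2, and their part in the *Vim* value was not tested. Of 15 genes of the list tested with library 3 for animal 1, 0 were called, and leaving out single samples the count was 2 without animal 3, 3 without KT 2, 3 or 4 or animal 1 and 4 without KT 1. Most calls in the matrix list were integrins, the receptors that anchor cells to matrix: 7 of 10 rose, with a median of 1.19, where 9.89% of all genes rose. *Itgav* was 327, 316, 353 and 286 CPM in *KT* and 885, 670.0, 710.1 and 688 CPM in double-deficient tumors, a log2 fold change of 1.20 (adjusted p 0.00163, called in 24 of 24 fits). *Itgb3*, its partner in the vitronectin receptor, was 10.4, 4.08, 6.09 and 3.29 CPM and 53.2, 33.4, 60.7 and 93.3 CPM, a log2 fold change of 3.33 (adjusted p 0.00159, called in 23 of 23 fits). For both genes the groups were apart. *Itga6*, a laminin receptor subunit, had 1.51 (adjusted p 0.0103, called in 21 of 24 fits). Of 12 collagen, laminin and crosslinking genes tested, 1 rose and 1 fell (*Col6a2*, -1.99 (adjusted p 0.0372)). In the whole list there were 3 higher calls with library 3 for animal 1.

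Glycolysis was among the groups with the largest share of calls. Of 16 genes tested 11 rose (68.8%, where 9.89% of all genes rose) and 0 fell, with a median of 1.02. *Slc2a1*, the glucose transporter GLUT1, was 35.7, 33.4, 53.2 and 38.5 CPM in *KT* and 201, 78.3, 164 and 144 CPM (log2 fold change 1.86, SE 0.283, adjusted p 0.00395). *Pgk1*, phosphoglycerate kinase, was 77.9, 69.3, 76.3 and 73.3 CPM and 195, 164, 232 and 270.3 CPM (log2 fold change 1.53, SE 0.174, adjusted p 0.00114). *Aldoa*, aldolase A, showed a log2 fold change of 1.28 (adjusted p 0.00536, called in 24 of 24 fits) and *Eno1*, enolase 1, 1.46 (adjusted p 0.00392, called in 24 of 24 fits). *Ldha*, which makes lactate, was 604, 635, 658 and 775 CPM and 2012, 1081, 1270.3 and 1754 CPM (log2 fold change 1.20, adjusted p 0.00752). For all 5 genes each double-deficient animal lay above each *KT* tumor, and animal 2 was the lowest of the 4 animals. Several glycolytic genes have near-identical processed copies in the genome, and RSEM divides such reads, so single values carry that uncertainty. In non-restored tumors *Slc2a1* was 38.4 to 239.7 (median 50.7) CPM and 0 of 17 genes were called by edgeR between these and the double-deficient tumors (2 at an unadjusted p under 0.05 and 0 by DESeq2). Glycolysis had 6 higher calls with library 3 for animal 1. Of 12 hypoxia response genes, 4 rose (33.3%, against 9.89% of all genes) and 0 fell, with a median of 0.44. Beside *Stc1* these were *Ndrg1*, a stress-induced growth regulator, at 29.2, 22.8, 20.3 and 18.8 CPM and 245, 108, 379 and 468 CPM (log2 fold change 3.72, SE 0.446, adjusted p 0.00218), *Anln*, anillin, with 1.37 (adjusted p 0.0114, called in 20 of 24 fits), and *Ero1l*, an oxidase of the endoplasmic reticulum, with 0.69 (adjusted p 0.0431, called in 9 of 24 fits). The hypoxia count was 2 with library 3 for animal 1.

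Of 29 lipid synthesis genes tested, 3 were called higher and 3 lower, 10.3% each. Over all genes tested 9.89% were called higher and 5.6% lower, so the higher share lay near that of all genes. Of 16 sterol genes tested 2 rose, among them *Sqle*, squalene epoxidase, at 17.5, 54.6, 39.4 and 34.3 CPM in *KT* and 62.4, 66.9, 121 and 101 CPM (log2 fold change 1.27, adjusted p 0.0306, called in 18 of 24 fits). Of 13 fatty acid and glycerolipid genes 1 rose, *Gpam*, a glycerol-phosphate acyltransferase (log2 fold change 1.41, adjusted p 0.0194, called in 15 of 23 fits), and 3 fell. *Acly*, ATP citrate lyase, was 194, 271, 272 and 250.4 CPM and 151, 151, 189.9 and 116 CPM (log2 fold change -0.70, adjusted p 0.0283, called in 14 of 24 fits), and *Acaca*, acetyl-CoA carboxylase, and *Fads1*, a desaturase, had -0.82 (adjusted p 0.0478) and -1.68 (adjusted p 0.0466). Across the whole list the median was 0.31, and with library 3 for animal 1 none of the 30 genes tested was called. Without single samples the count of higher members was 0 without KT 4, 1 without KT 3 or animal 3 and 5 without animal 2, and that of lower members 0 without KT 2, 3 or 4 or animal 1 or 4 and 1 without animal 3.

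Antigen presentation genes were lower where called. All 8 MHC class II genes tested had a negative log2 fold change, with a median of -2.58, and 5 were called (62.5%, where 5.6% of all genes were called lower). *Ciita*, the master transactivator of the class, was 41.6, 60.3, 58.5 and 52.6 CPM in *KT* and 18.7, 19.5, 7.68 and 1.37 CPM (log2 fold change -2.10, SE 0.547, adjusted p 0.035), and was called in 13 of 23 fits. *H2-Aa*, the alpha chain of I-A, was 589.7, 713, 765 and 646 CPM and 129, 215, 72.1 and 9.15 CPM (log2 fold change -2.66, SE 0.723, adjusted p 0.0439). Animal 4 was the lowest for both, and no double-deficient animal reached the *KT* range. *H2-DMa*, *H2-DMb1* and *H2-DMb2*, which load peptides, had log2 fold changes of -1.91 (adjusted p 0.0108, called in 23 of 24 fits), -2.67 (adjusted p 0.0211, called in 18 of 23 fits) and -3.14 (adjusted p 0.0103, called in 20 of 23 fits). The last 2 are close copies, between which reads may be shared. Cells bearing CD45 were excluded in the sort, and the sums of immune markers given above overlapped between the 2 groups. The part of other cells in the MHC class II values was not tested. Using library 3 for animal 1, 1 of the 8 was called, with a median of -2.21, and without single samples the count was 2 without KT 3 or 4 or animal 3, 3 without KT 1 or 2 and 8 without animal 4. Of 21 class I and interferon genes tested 5 fell (23.8%, against 5.6% of all genes) and 0 rose, with a median of -0.28. *Tap1*, the peptide transporter, was 19.5, 11.4, 17.5 and 12.2 CPM and 6.66, 5.31, 4.76 and 5.95 CPM (log2 fold change -1.42, adjusted p 0.00993, called in 21 of 24 fits), *Tmem173*, which encodes STING, had -1.38 (adjusted p 0.00668, called in 22 of 24 fits), *Psmb8*, an immunoproteasome subunit, -1.21 (adjusted p 0.013, called in 19 of 24 fits), and *H2-K1*, a class I heavy chain, -2.15 (adjusted p 0.021, called in 19 of 24 fits). The count of 5 was 3 without KT 3, and 1 with library 3 for animal 1. Against non-restored tumors edgeR called 0 of 8 class II genes (4 at an unadjusted p under 0.05 and 1 by DESeq2) and 0 of 24 class I and interferon genes (1 at an unadjusted p under 0.05 and 1 by DESeq2).

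The 3-group fit of 18 samples, which shares 1 estimate of the spread, also gave fewer calls against *KT* in other groups, with 6 higher in glycolysis, 4 each in the progression and the matrix and integrin genes, 3 in the epithelial and mesenchymal genes, 2 in hypoxia, 1 each in the p53 targets and the chemokines and 0 in the squamous and NRF2 genes. Among lower calls it gave 2 each in the LKB1 complex and MHC class I groups, 1 in the lineage factors and 0 in the sterol and ATI genes. The remaining groups gave few calls, to be read beside the 9.89% of all genes called higher and 5.6% called lower. Of 14 chemokine and cytokine genes tested 4 rose and 1 fell. Besides *Il33* and *Cxcl15* they were *Il1a*, at 0, 0, 2.03 and 0.939 CPM and 26.9, 4.37, 11 and 20.1 CPM (log2 fold change 4.03, adjusted p 0.0136, called in 15 of 18 fits), *Cxcl5*, a neutrophil chemokine, with 1.58 (adjusted p 0.0193, called in 12 of 21 fits), and *Lif*, a cytokine of the interleukin-6 family, with 2.38 (adjusted p 0.0377). Of 28 proliferation genes 1 was called (3.57%), *Rrm1*, a ribonucleotide reductase subunit (log2 fold change 0.75, adjusted p 0.0283, called in 16 of 24 fits), with a median of 0.48. *Mki67*, which encodes the cycling cell marker Ki-67, was 31.2, 63.6, 45.1 and 45.6 CPM in *KT* and 67.6, 97.5, 51.6 and 119 CPM (log2 fold change 0.86, SE 0.29, adjusted p 0.0708), with a 95% interval of 0.29 to 1.43. Of 3 squamous genes tested 2 rose, *Pkp1*, a desmosomal plakophilin with 4 counts in the *KT* group and 578 in the double-deficient group (ratio of pooled CPM 49.3, 95% counting interval 19.2 to 182), and *Serpinb5*, maspin (log2 fold change 1.45, adjusted p 0.0451, called in 9 of 24 fits). The squamous count was 3 without animal 2 and 1 without any other single sample. Neither squamous gene nor *Rrm1* was called with library 3 for animal 1. Of 15 NRF2 and glutathione genes *Gpx2*, a glutathione peroxidase, rose (log2 fold change 3.00, adjusted p 0.0423, called in 11 of 23 fits) and *Hmox1*, heme oxygenase 1, fell (log2 fold change -1.21, adjusted p 0.0178, called in 19 of 24 fits). The higher NRF2 count was 0 without *KT* 1, 2 or 3 or animal 3 or 4 and 2 without animal 1, the lower was 0 without *KT* 3 or animal 3 and 2 without animal 2, and both were 0 with library 3 for animal 1. The chemokine count of 4 was 1 without animal 1 and 2 without KT 1 or 4 or animal 3, and 1 with library 3 for animal 1. Of 12 immediate early genes, which respond to tissue dissociation, 0 were called by edgeR, 1 by DESeq2 and 1 had an unadjusted p under 0.05. *Fos* was 764, 654, 1200.3 and 144 CPM in *KT* and 2032, 1640.3, 1487 and 1808 CPM (log2 fold change 1.33, adjusted p 0.114). *Egr1* was 1077, 1096, 2354 and 340.5 CPM and 2386, 2284, 2500.1 and 2117 CPM (log2 fold change 0.93, adjusted p 0.205).

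**Figure D5:**
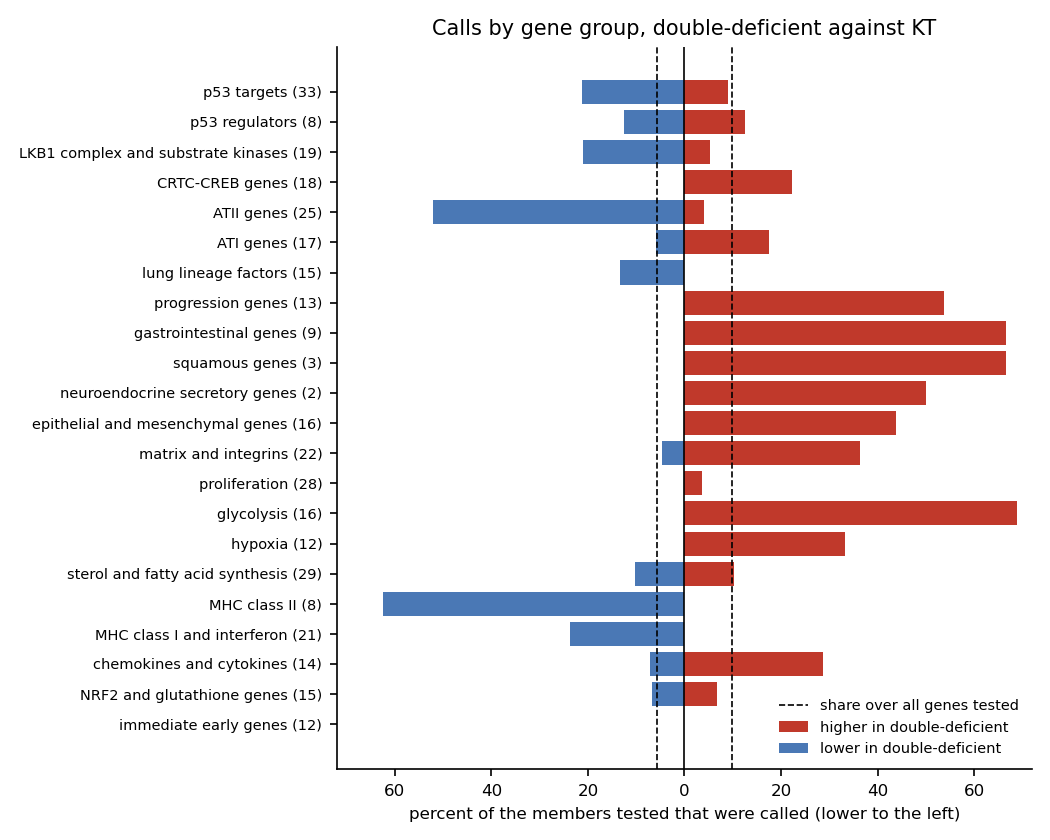
Percent of the tested members of each gene group (number tested in parentheses) that were called higher (red, to the right) or lower (blue, to the left) in double-deficient than in *KT* tumors; dashed lines mark the shares over all genes tested, 9.89% higher and 5.6% lower. Glycolysis, gastrointestinal and squamous groups extend farthest to the right and the MHC class II and ATII groups farthest to the left, with only 3 squamous and 2 neuroendocrine genes tested.

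The double-deficient tumors were then set against non-restored tumors, to see what differed when both groups lacked *Lkb1*. Of 12101 genes tested, 18 were called higher and 12 lower, 0.149% and 0.0992% (0.248% in all), whereas 2127 had an unadjusted p under 0.05. DESeq2 called 309, and without animal 2 edgeR called 46. The genes described here were chosen by rule, at most 5 per direction by adjusted p among named genes with an absolute log2 fold change over 1 that also differed from *KT* in the same direction. Of these, *Trp53* showed a log2 fold change of -3.24 (adjusted p 0.000217, SE 0.384), and *Gas5*, a growth arrest-associated noncoding RNA that hosts snoRNAs, had -2.24 (adjusted p 0.000307, SE 0.276). *Gas5* was 312, 151, 249.7 and 174 CPM in *KT*, 140.1 to 384 (median 254) CPM in non-restored and 68.5, 55.2, 52.7 and 43 CPM in double-deficient tumors, and against *KT* it was called in all 24 fits (log2 fold change -2.01, SE 0.247, adjusted p 0.00149). *Ephx1*, *Ccng1* and *Zmat3*, described above, were the other lower genes chosen. The higher genes chosen were the clone-named gene *AC160336.1* with 3.43 (adjusted p 3.84e-05, SE 0.357), *Unc13c*, a vesicle priming protein, with 3.80 (adjusted p 0.00106, SE 0.525), *Spcs3*, a signal peptidase subunit, with 1.23 (adjusted p 0.0254, SE 0.233), *Hacd2*, an enzyme of fatty acid elongation, with 1.05 (adjusted p 0.0389, SE 0.21), and *Mcpt8*, a granule protease known from basophils, with 4.04 (adjusted p 0.0459, SE 0.813). *Mcpt8* was 4.55, 3.26, 4.87 and 3.29 CPM in *KT* and 364, 45.5, 53.6 and 131 CPM, and within animal 1 it was 444, 544 and 10.8 CPM by library. *Spcs3* was 364, 246, 299.8 and 369.6 CPM against 93.2 to 224 (median 123) CPM in non-restored tumors, all 4 animals above each of them. *Hacd2* was 155, 92.8, 113 and 179 CPM against 48.2 to 105 (median 57.7) CPM, with animal 2 inside their range. Tumor age and mouse line differed between these 2 groups as well. If some non-restored libraries came from the same mouse, the p-values against this group rest on fewer animals than samples. Between non-restored and *KT* tumors 291 genes were called higher (2.4%) and 287 lower (2.37%), 4.78% in all, in the same fit of 3 groups.

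Because the groups came from different mouse lines, genes around the engineered loci were counted. Within 5 Mb of *Stk11*, 12 of 136 genes tested were called (8.82%), and within 5 Mb of *Trp53* 11 of 92 (12%), where 15.5% of all genes were called. Another called gene lay within 2 Mb of 92.3% of called genes, and a called gene lay within 2 Mb of 93.1% of the genes not called.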

How the data were processed

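RNA of sorted neoplastic cells was sequenced from whole libraries made with a low-input kit with rRNA depletion. The authors aligned the reads with STAR 2.6.1d to mm10 and estimated expected counts per gene with RSEM 1.2.30. The deposited tables hold expected counts that need not be whole (5.39% of values on average were not) and the TPM values that the authors obtained from RSEM. Deposited tables of the authors' own DESeq2 comparisons (fold changes and p-values) were not used. Double-deficient libraries whose titles share an animal number were summed to 1 sample per animal, and expected counts were rounded. Each *KT* and each non-restored library was entered as 1 sample. The paper's bulk RNA-seq figure lists fewer non-restored mice than there are non-restored libraries here. Some of these samples may therefore share an animal, which the fits did not take into account. Reads that near-identical copies share are divided by RSEM, so such genes are uncertain.

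Double-deficient and *KT* samples (8) were fitted with edgeR 4.0.16 in R 4.3.3 (filterByExpr, TMM, quasi-likelihood F test, Benjamini-Hochberg adjustment over all genes tested, threshold 0.05). Contrasts with non-restored tumors came from 1 fit of 18 samples. CPM are counts scaled by the TMM-adjusted library total. *Stk11* and *Trp53* were also tested with a two-sided exact permutation test of mean log2(CPM + 0.5). Counting intervals were exact binomial intervals (scipy 1.17.1). Alternatives were DESeq2 1.42.0, other scalings and filters, limma 3.58.1 on log2(TPM + 1), thinning, subsets of samples, sex as a covariate and each sample left out. The fits were tested on simulated data with known changes. Totals of 1302482 to 8258398 counts per sample set the precision, and counting intervals cover counting error only. Promoters were read from RefSeq windows on GRCm38.p6.

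The genes compared and the lists were chosen with earlier results of these data known. Genes named are *Stk11* and *Trp53*, the 10 per direction with the smallest adjusted p, an absolute log2 fold change over 1, groups apart and at least 10 CPM, leaving out predicted genes, up to 4 called genes per list, 5 per direction against non-restored tumors, and *Cdkn1a*, *Mdm2*, *Ccng1*, *Cdkn2a*, *Sftpc*, *Nkx2-1*, *Hmga2*, *Mki67* and *Ptprn*. Other genes named were chosen after their values were seen. Some genes that these rules select are not reported here.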

Additional observations from a re-analysis of the deposited data

Results flagged for a closer look

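In 200 groups of 4 samples among the named genes, 10 held a sample farther from the others than Dixon's 95% critical value allows, and chance gives about 1 in 20. In 3 of them a single count or a few counts stood against 0 in the other samples of the group: *Anxa10* at 0.649 CPM and *Tff1* at 3.9 CPM in *KT* 1, and *Spink5* at 0.183 CPM in double-deficient animal 3. Further *KT* values stood apart. *Cxcl5* was 1.3 CPM in *KT* 1 against 2.35 to 2.45 CPM in the others, *Plaur* was 31.3 CPM in *KT* 3 against 9.74 to 11.4 CPM, and *Eno1* was 77.5 CPM in *KT* 4 against 52.2 to 54.4 CPM. Among double-deficient animals, *Emp2* was 1107.8 CPM in animal 1 against 697 to 714 CPM, and *Lyz2* was 44.8 CPM in animal 4 against 974 to 999.4 CPM. Animal 2 held 2 of the 10, with *Ephx1* at 6.72 CPM against 1.83 to 2.29 CPM and *Itga2* at 736.9 CPM against 2436.2 to 2539.6 CPM.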

How the results depend on the processing

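The count of 1670 genes called between double-deficient and *KT* tumors was 365 with library 3 for animal 1, 588 in the vehicle arm alone and 868 after thinning to the shallowest sample, where samples or reads were fewer or replaced. Without single samples it ran from 892 to 2131, being 953 without *KT* 3, 1014 without *KT* 4, 1087 without animal 1 and 892 without animal 3. The 30 calls against non-restored tumors were 309 by DESeq2, 54 without a filter and 17 with at least 10 counts in every sample, and 21 to 46 without single animals. The cause was not tested. *Stk11* and *Trp53* stayed lower and past the threshold in each of the fits that tested them. No value changed its direction past the threshold in any alternative. Of the 100 named genes tested, 91 were called against *KT*, and 37 of them in each fit that tested them, 23 higher and 14 lower, while 43 were called with library 3. The 578 calls between non-restored and *KT* tumors were 1022 by DESeq2, and among libraries numbered 1 to 4 they were 326 without and 203 with the replicate block. For same-numbered *KT* and non-restored libraries, the deviations of genes from their group means were correlated. These correlations were -0.058, 0.137, -0.019 and 0.072, which gave no sign of a pairing by number. No paired analysis was possible for double-deficient tumors because their titles carry no number shared with *KT*. *KT* depth, at most 2649449 counts, limits the low genes.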

Other observations

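*Mcpt1*, *Mcpt2* and *Klra4*, genes outside the lists that were chosen after their values were seen, were called higher in double-deficient than in *KT* tumors. The 16 immune markers summed to overlapping levels in both groups, 48.1 to 90.9 CPM in *KT* and 45.6 to 79 CPM in double-deficient tumors, and the part of other cells in these values was not tested. *Mcpt1*, a chymase known from mucosal mast cells, was 1.95, 4.89, 2.84 and 4.23 CPM in *KT* and 3310.1, 330.5, 2139 and 6252 CPM in animals 1 to 4 (log2 fold change 9.77, adjusted p 0.0021). *Mcpt2*, its neighbor in the same protease family, was 9.74, 0.815, 7.31 and 2.82 CPM and 1343, 524, 1191 and 2169 CPM (log2 fold change 7.93, adjusted p 0.00092). *Klra4*, a lectin-like receptor of natural killer cells, held at most 1.41 CPM in *KT* and was 132, 24.8, 268 and 279 CPM (adjusted p 0.0053). In all 3 genes animal 2 was the lowest of the double-deficient animals, and between double-deficient and non-restored tumors none of the 3 was called (log2 fold changes 2.66, 2.13 and 1.25). *C6*, chosen in the same way, which encodes a terminal complement component, was 64.9, 353, 311 and 191 CPM in *KT* and 4.00, 5.16, 1.10 and 0.915 CPM (log2 fold change -6.20, adjusted p 0.0024), and in non-restored tumors it was also lower than in *KT* (-2.48, adjusted p 0.022).

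Some genes called between double-deficient and non-restored tumors lay at the *KT* level in double-deficient tumors. *Raet1e*, a ligand of the NKG2D receptor, was 29.9, 22.01, 16.2 and 26.3 CPM in *KT* and 18.4, 28.3, 32.4 and 32.0 CPM in double-deficient tumors (log2 fold change 0.23, adjusted p 0.57), and differed by 4.43 from non-restored tumors on the log2 scale (adjusted p 0.0047). *Wrn*, a RecQ helicase, showed 0.02 (adjusted p 0.96) against *KT* and -1.01 (adjusted p 0.0034) against non-restored tumors. Both values rest on the non-restored tumors, which came from another set of mice.

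*Rpl3-ps1*, *Gm11361* and *Gm10260*, pseudogene or predicted loci that the rule on names left out, were chosen after their values were seen. *Rpl3-ps1*, a processed copy of a ribosomal protein gene, was 227, 203, 248 and 257 CPM in *KT* and 24.3, 21.9, 27.8 and 18.8 CPM in double-deficient tumors (log2 fold change -3.32), and differed by -3.25 on the log2 scale from non-restored tumors. *Gm11361* and *Gm10260* moved the other way, with log2 fold changes of 5.78 (adjusted p 0.0051) and 6.88 (adjusted p 0.0022) against *KT* and of 5.71 and 6.92 against non-restored tumors. All 3 may share reads with other copies.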
